A study of Mus musculus with 6 samples.

Results

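The platelet-derived growth factor (PDGF) system was examined in bronchial smooth muscle cells (BSMCs) of mice with allergic airway inflammation through 9 genes. These were the 4 ligand genes Pdgfa, Pdgfb, Pdgfc and Pdgfd, the 2 receptor genes Pdgfra and Pdgfrb, and Src, Ptpn11 and Plcg1, whose products bind the activated receptors. The genes were chosen by name, with earlier results of these data known. Each was represented by 1 probe set among the 20239 with a gene symbol, of 21225 on the deposited arrays.

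PDGF ligands are dimers that join a pair of receptor chains, and the chains then phosphorylate each other on tyrosines. PDGF-A and PDGF-B are secreted in active form, whereas PDGF-C and PDGF-D carry a CUB domain that a protease must remove. Proteins with SH2 domains dock on the phosphorylated receptors, among them the kinase Src, the phosphatase SHP-2 (Ptpn11) and phospholipase C gamma 1 (Plcg1). PDGF is known as a mitogen and attractant of smooth muscle cells and fibroblasts, and PDGFRα is widely used as a marker of lung fibroblasts.

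Levels were measured on 6 Affymetrix whole-transcript arrays, 3 of PBS sensitized control samples (PBS) and 3 of ovalbumin sensitized samples (OVA), with 1 array per sample. All mice were C57BL/6J and carried 2 transgenes, αSMA-hrGFP, which marks smooth muscle through the α-smooth muscle actin promoter, and NG2-DsRed, which marks vascular smooth muscle and pericytes. OVA mice received 2 intraperitoneal injections of 50 µg of OVA, on day 0 and day 7, while controls received PBS. Both groups inhaled OVA on 5 days, from day 14 to day 18, and cells were taken on day 19. BSMCs were sorted as hrGFP positive cells without DsRed, CD31 or CD45. The labels instead speak of microdissected muscle from single animals and give OVA sensitization for every sample, whereas the Methods describe sorted cells pooled from several mice and a PBS group. Values are log2 levels, so that a difference of 1 is a doubling.

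One OVA array, OVA 2, stood apart. Its mean correlation with the other arrays over all probe sets was 0.959, against 0.98 to 0.986 for the others, and its quartiles of 5.71 and 7.95 lay closer together than those of the others (5.25 to 5.36 and 8.24 to 8.29). The study left out 1 OVA array as an outlier in principal components without naming it, and OVA 2 was the farthest out on the first component here. PBS 1 to 3, OVA 1 and OVA 3 are therefore compared first, and OVA 2 is given beside each result. Contractile genes of smooth muscle averaged 9.76 to 10.99 on the PBS arrays, 10.94 on OVA 1, 11.29 on OVA 3 and 10.10 on OVA 2, with Acta2, which encodes α-smooth muscle actin, between 11.87 and 12.52 on all 6. Ptprc, which encodes the CD45 used to remove leukocytes, lay between 6.18 and 8.31. Cspg4, whose promoter drives DsRed, and Notch3, a gene of vascular smooth muscle, lay between 8.81 and 9.63 and between 9.31 and 10.33.

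Without OVA 2, none of the 9 genes passed a false-discovery rate (FDR) of 0.25 between the groups, the cutoff used in the study, which 8 of all genes did (0.0395%). At an unadjusted p under 0.01, Src and Pdgfc were higher in OVA samples and no member was lower. Both are on the study's list at this cutoff from the same arrays, so that they pass here is no independent evidence. The share of all genes that were higher at this cutoff was 0.963%. Without PBS 1 or without OVA 3 neither gene reached it, and without PBS 2, PBS 3 or OVA 1 only 1 of the 2 did. No further member reached an unadjusted p under 0.05. For these same 2 genes both OVA arrays lay above every PBS array, as for 11.9% of all genes. For Pdgfd and Plcg1 both lay below every PBS array, as for 16.8% of all genes, and for the other 5 genes the groups overlapped. With 3 against 2 or 3 against 3 arrays, an exact permutation test cannot give a p under 0.1.

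**Figure D1:**
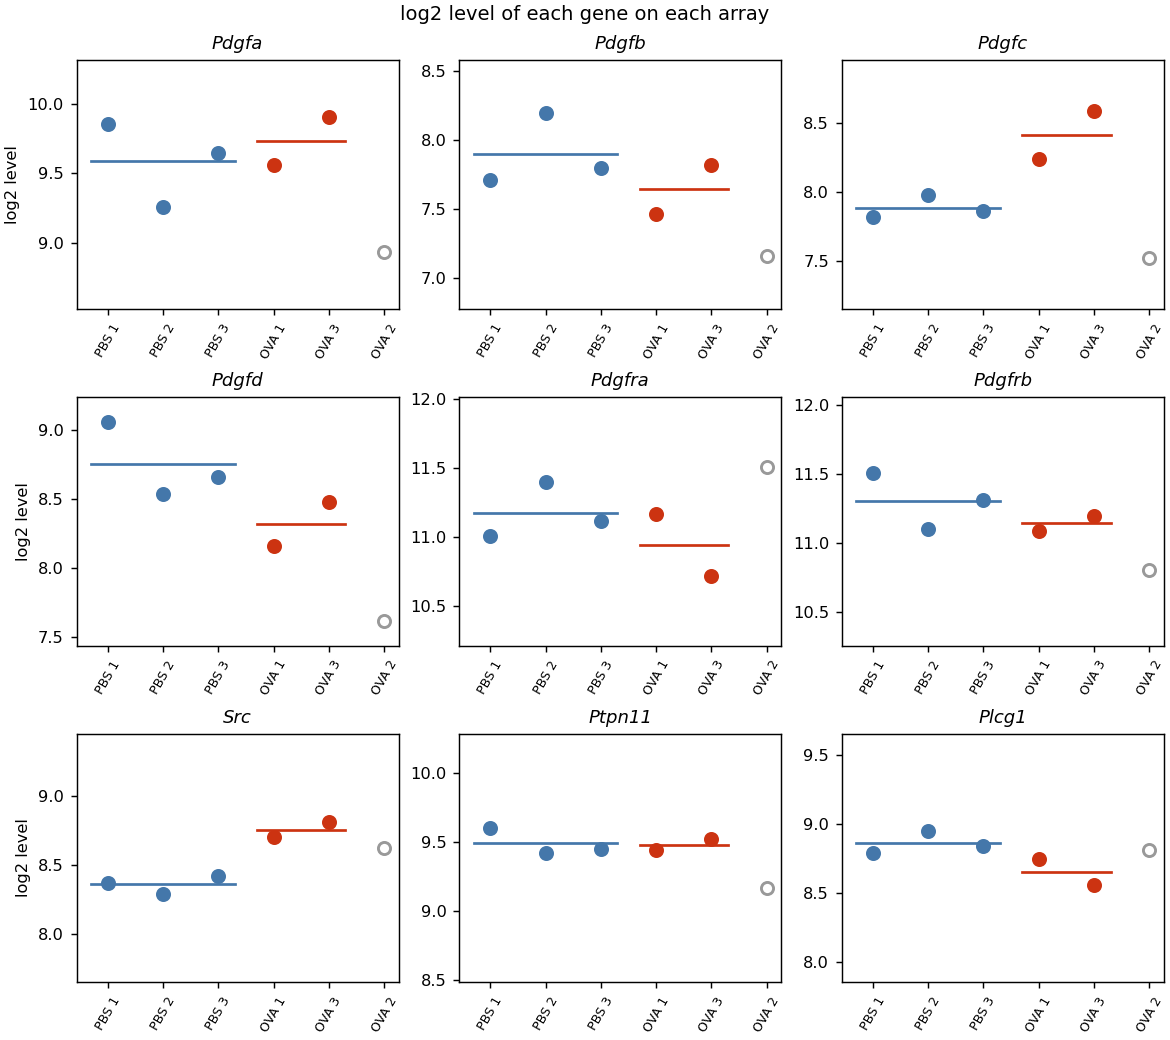
log2 level (vertical axis, each panel spanning the same number of log2 units) of the 9 genes on each array. Filled points are PBS arrays in blue and OVA 1 and OVA 3 in red, horizontal lines are their means, and the open grey point is OVA 2. Src and Pdgfc stand apart between PBS and OVA 1 and OVA 3, and OVA 2 joins the higher side for Src (8.62) and falls below all others for Pdgfc (7.52).

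Pdgfc (Entrez 54635) encodes PDGF-C, a ligand of PDGFRα that needs proteolytic activation. Its level was 7.82, 7.98 and 7.86 on PBS 1 to 3, 8.24 on OVA 1 and 8.59 on OVA 3. The lowest of these OVA arrays was 0.27 above the highest PBS array, a gap wider than the PBS range of 0.16. The means were 7.89 ± 0.08 (SD, n = 3) and 8.42 ± 0.24 (SD, n = 2), so that Pdgfc differed by 0.53 on the log2 scale (standard error 0.126, 95% interval 0.22 to 0.84), a ratio of 1.44 (limma, unadjusted p = 0.00529, adjusted p = 0.48). On OVA 2 the level was 7.52, below each of the other 5 arrays. Over all 6 arrays the log2 fold change was 0.23 with an interval from -0.38 to 0.84 (adjusted p = 0.892), and without OVA 3 it was 0.36. The difference of Pdgfc was thus seen on 2 of 3 OVA arrays. In bulk samples more cells of a type and more RNA per cell cannot be told apart.

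The other CUB domain ligand lay lower on the OVA arrays. Pdgfd (Entrez 71785), which encodes PDGF-D, a ligand of PDGFRβ, had levels of 9.06, 8.54 and 8.66 on PBS 1 to 3 and 8.16, 7.62 and 8.48 on OVA 1 to 3. All 3 OVA arrays lay below every PBS array, as for 7.83% of all genes, although OVA 3 lay only 0.07 below PBS 2. The log2 fold change was -0.44 (standard error 0.182, 95% interval -0.88 to 0.00) without OVA 2 and -0.67 (standard error 0.246, 95% interval -1.24 to -0.09) over all 6 arrays. The unadjusted p was 0.0519 over 5 arrays and 0.0283 over 6, beside adjusted p of 0.535 and 0.892 from limma. Over all 6 arrays Pdgfd and Src were the 2 of 9 members at an unadjusted p under 0.05, which 4.54% of all genes reached. Leaving out either PBS 1, the highest PBS array, or OVA 1 from the 5 arrays gave a log2 fold change of -0.28.

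The 2 ligands that are secreted in active form did not separate the groups. Pdgfa (Entrez 18590) measured 9.86, 9.26 and 9.65 on PBS 1 to 3 and 9.56 on OVA 1 and 9.91 on OVA 3, a log2 fold change of 0.15 (95% interval -0.34 to 0.63, adjusted p = 0.82). OVA 2 was lowest at 8.93, and with it the value turned to -0.12. It was also slightly negative without PBS 2 (-0.02) or without OVA 3 (-0.03). Pdgfb (Entrez 18591), the B chain known from platelets and endothelium, measured 7.71, 8.20 and 7.80 on PBS 1 to 3, 7.47 on OVA 1, 7.82 on OVA 3 and 7.16 on OVA 2. Its log2 fold change was -0.26 (95% interval -0.70 to 0.17, adjusted p = 0.653), and -0.12 without PBS 2 and -0.09 without OVA 1. In both genes the PBS arrays alone spread over 0.60 and 0.48, more than the difference between the means.

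Neither receptor gene passed. Pdgfra (Entrez 18595) measured 11.01, 11.40 and 11.12 on PBS 1 to 3, 11.17 on OVA 1 and 10.72 on OVA 3, with a log2 fold change of -0.23 (95% interval -0.66 to 0.20, adjusted p = 0.694). OVA 3 lay below every other array and OVA 2, at 11.51, above every other array, so the OVA arrays held both extremes. The log2 fold change was 0.00 without OVA 3, -0.45 without OVA 1, -0.12 without PBS 2 and -0.04 over all 6 arrays. Pdgfra was itself 1 of 12 fibroblast markers measured, whose mean level was 10.84 to 11.09 on PBS arrays, 10.95 on OVA 1, 10.78 on OVA 3 and 11.07 on OVA 2. The part of fibroblast RNA in the result was not tested.

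Pdgfrb (Entrez 18596), which encodes the receptor used by pericytes and smooth muscle, measured 11.51, 11.10 and 11.31 on PBS 1 to 3, 11.09 on OVA 1, 11.20 on OVA 3 and 10.81 on OVA 2. OVA 3 lay within the PBS range, OVA 1 just under its lowest array, and OVA 2 lowest of all. The log2 fold change was -0.16 (95% interval -0.49 to 0.17, adjusted p = 0.711), and -0.27 over all 6 arrays and -0.06 without PBS 1. The 8 markers of vascular smooth muscle and pericytes averaged 8.90 to 9.53 on the PBS arrays, 9.25 on OVA 1, 9.50 on OVA 3 and 8.62 on OVA 2, which like Pdgfrb was lowest there. Their part in the level of Pdgfrb was not tested.

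Src (Entrez 20779), the founding member of its family of tyrosine kinases, was the 1 member that lay higher on all 3 OVA arrays. Its levels were 8.37, 8.29 and 8.42 on PBS 1 to 3 and 8.70, 8.62 and 8.81 on OVA 1 to 3. All 3 OVA arrays lay above every PBS array, as for 4.16% of all genes. The spread within each group was small, with means of 8.36 ± 0.06 (SD, n = 3) for PBS and 8.76 ± 0.08 (SD, n = 2) for OVA 1 and OVA 3. The log2 fold change was 0.40 (standard error 0.0882, 95% interval 0.18 to 0.61), a ratio of 1.32 (limma, unadjusted p = 0.00397, adjusted p = 0.48). Over all 6 arrays it was 0.35 (standard error 0.124, 95% interval 0.06 to 0.64, adjusted p = 0.892). Leaving out any 1 of the 5 arrays gave 0.34 to 0.45. With all 6 arrays weighted by their reliability, a setting added after the data were seen, it was 0.37 and passed the FDR of 0.25 (limma, adjusted p = 0.185), as did 563 of all genes (2.78%). In that setting 4 of the 9 members had an unadjusted p under 0.05, and so had 11.7% of all genes.

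The other SH2 proteins did not follow Src. Ptpn11 (Entrez 19247) measured 9.60, 9.42 and 9.45 on PBS 1 to 3, 9.44 on OVA 1, 9.52 on OVA 3 and 9.17 on OVA 2. Its log2 fold change of -0.01 had the narrowest interval after that of Src, -0.24 to 0.22 (adjusted p = 0.978). Plcg1 (Entrez 18803), whose product releases the second messengers that raise cell calcium, measured 8.79, 8.95 and 8.84 on PBS 1 to 3, 8.75 on OVA 1, 8.56 on OVA 3 and 8.81 on OVA 2. The gap between the groups was 0.04, and OVA 2 lay within the PBS range. The log2 fold change was -0.20 (95% interval -0.44 to 0.04, adjusted p = 0.577), and -0.11 without OVA 3.

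**Figure D2:**
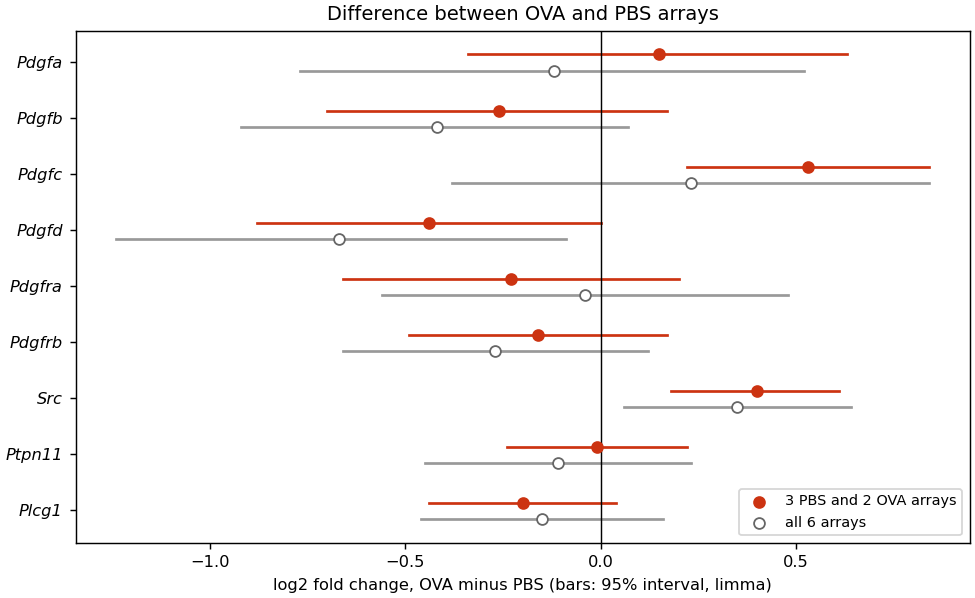
log2 fold change of OVA over PBS (horizontal axis) for each gene, as points with 95% intervals from limma. Red points are from 3 PBS and 2 OVA arrays and open grey points from all 6 arrays. The interval of Src lies above 0 in both (0.18 to 0.61 and 0.06 to 0.64), whereas that of Pdgfc does so only without OVA 2.

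The sequences just upstream of the 3 genes with the smallest unadjusted p over the 5 arrays are shown, since these carry the differences described above. They are the 250 bases before an annotated start, from RefSeq on GRCm38.p6, and all lie on the + strand, at chr2:157424043-157424292 for Src, chr3:81036166-81036415 for Pdgfc and chr9:6168236-6168485 for Pdgfd. Of the 9 genes 7 had a window in the table used, and Pdgfb and Pdgfrb had none. Both strands were searched for the CArG box bound by serum response factor, for TTC and GAA with 4 bases between them, the spacing preferred by STAT6, or with 3, the spacing of other STAT factors, for the GC box GGGCGG and for the AP-1 site TGANTCA, and matches are in capitals.
Src: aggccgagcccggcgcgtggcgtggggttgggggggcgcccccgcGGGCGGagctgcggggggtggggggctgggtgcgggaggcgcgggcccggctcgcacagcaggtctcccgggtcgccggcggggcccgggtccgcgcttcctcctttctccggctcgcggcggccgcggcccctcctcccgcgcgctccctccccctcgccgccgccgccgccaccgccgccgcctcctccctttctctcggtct
Pdgfc: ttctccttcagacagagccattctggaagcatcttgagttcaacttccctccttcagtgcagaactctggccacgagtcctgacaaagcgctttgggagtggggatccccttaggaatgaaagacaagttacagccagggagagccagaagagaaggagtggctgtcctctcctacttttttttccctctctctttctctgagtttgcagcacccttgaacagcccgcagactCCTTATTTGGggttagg
Pdgfd: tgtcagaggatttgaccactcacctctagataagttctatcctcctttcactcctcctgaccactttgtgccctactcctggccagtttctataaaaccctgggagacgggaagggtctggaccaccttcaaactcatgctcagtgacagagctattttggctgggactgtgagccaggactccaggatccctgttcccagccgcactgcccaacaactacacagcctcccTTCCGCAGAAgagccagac

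The 3 windows shared none of these motifs. That of Src held 1 GC box, starting 205 bases before the start, a motif present in 32.7% of the 32851 windows of all genes. That of Pdgfc held 1 CArG box, starting 17 bases before the start, as 1.47% of all windows held one or more. That of Pdgfd held 1 STAT6 match, starting 19 bases before the start, as 5.85% of all windows did. The match with 3 bases between (7.02% of all windows) and TGANTCA (6.75%) were in none of the 7 members' windows. A match is a description of the letters and not a bound site.

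Levels on OVA 2 differed from the rest across all genes, and this bears on each member. On that array 6 of the 9 genes lay below every PBS array, Pdgfra and Src above, and Plcg1 within. Of all genes 37.7% lay below and 45.7% above. After quantile normalization of all 6 arrays the level of Src on OVA 2 was 8.91, against 8.22 to 8.38 on the PBS arrays, and that of Pdgfd 7.83, against 8.49 to 8.99. That of Pdgfc on OVA 2 was then 7.72, still below the PBS arrays (7.80 to 7.92), and that of Ptpn11, 9.45, moved into their range of 9.38 to 9.54. The level of Plcg1 on OVA 2 moved above the PBS range, to 9.10 against 8.72 to 8.90. Of all genes 41.5% lay above every PBS array on OVA 2 after this scaling and 36.8% below. Src and Pdgfd kept their side on all 3 OVA arrays under it.

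**Figure D3:**
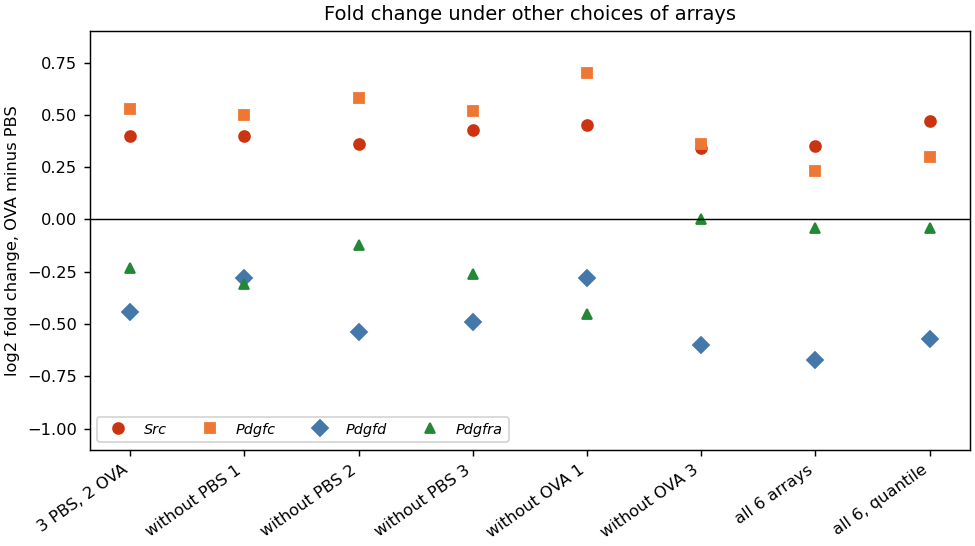
log2 fold change of OVA over PBS (vertical axis) for Src, Pdgfc, Pdgfd and Pdgfra with 3 PBS and 2 OVA arrays, with each of these left out in turn, and with all 6 arrays before and after quantile normalization. Src stays between 0.34 and 0.47 and Pdgfc between 0.23 and 0.70, Pdgfd stays below 0, and Pdgfra reaches 0.00 without OVA 3.

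Some marker lists of other cell types differed between the groups without OVA 2, and others differed little. Median log2 fold changes were -0.12 for fibroblasts, 0.11 for vascular smooth muscle and pericytes and -0.12 for platelets, against -0.02 over all genes. Of all genes 4.53% were higher and 4.78% lower at an unadjusted p under 0.05. Without OVA 2, the log2 fold change was positive for all 10 markers of leukocytes in general, with a median of 0.67 and 1 at an unadjusted p under 0.05. Their mean level was 7.39, 8.37 and 8.33 on PBS 1 to 3, 8.54 on OVA 1, 8.82 on OVA 3 and 6.81 on OVA 2. Like Pdgfc, this list was highest on OVA 3, next on OVA 1 and lowest on OVA 2. The 12 markers of macrophages and monocytes, cells known to express PDGF-C, averaged 6.80, 7.55 and 7.65 on PBS 1 to 3, 7.77 on OVA 1, 7.96 on OVA 3 and 6.83 on OVA 2. This list was lowest on PBS 1, whereas Pdgfc was lowest on OVA 2. All 10 contractile genes of smooth muscle also had a positive log2 fold change, with a median of 0.63 and 1 at that cutoff, but OVA 1 (10.94) lay below PBS 1 (10.99). Src was higher on OVA 2 than on each PBS array, where the leukocyte list (6.81) was below its PBS range and the contractile list (10.10) within it. On average the 7 measured markers of eosinophils lay as Src did, with means of 5.17, 5.18 and 5.59 on PBS 1 to 3 and 5.98, 5.72 and 6.08 on OVA 1 to 3. Of the 7, 2 were higher at an unadjusted p under 0.05. The median log2 fold change without OVA 2 was only 0.09, with 5 positive and 2 negative. Rnase2a alone had 3.94, and on OVA 2 its level of 6.30 lay within the PBS range. Ccr3, Il5ra and Epx, at 4.13 to 4.85, lay below the lower quartile of each array, which was highest on OVA 2 (5.71). Ear1 and Ear2 of that list had no match among the genes tested. Without OVA 2, all 9 markers of epithelium in general had a negative log2 fold change, 5 of them at an unadjusted p under 0.05. So had all 10 of endothelium, none at that cutoff. The medians were -0.45 and -0.43. Over all 6 arrays they were -0.56 and -0.94, and those of the leukocyte and contractile lists 0.05 and 0.37. The endothelial mean was 8.48 to 9.39 in controls, 8.38 on OVA 1, 8.39 on OVA 3 and 7.04 on OVA 2. Pdgfb, which endothelium expresses, was likewise highest on PBS 2 and lowest on OVA 2, but on OVA 3 (7.82) it lay within its PBS range. The 6 measured platelet markers, also highest on PBS 2 (6.90), averaged 6.46 on OVA 1, 6.60 on OVA 3 and 6.79 on OVA 2. What part these cells have in the levels of Pdgfc, Pdgfb and Src was not tested.

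**Figure D4:**
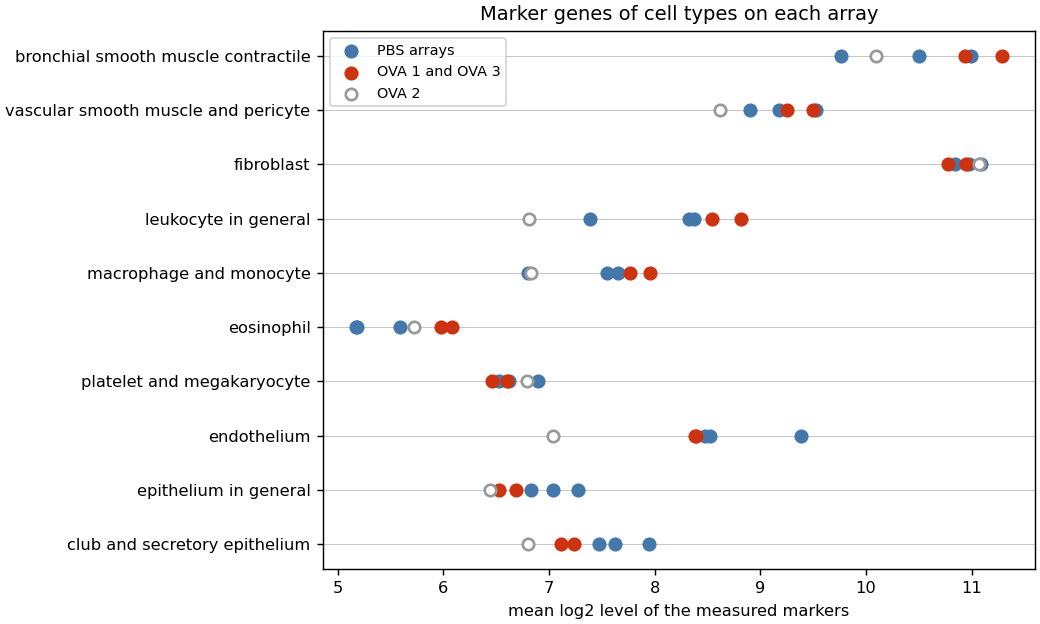
Mean log2 level (horizontal axis) of the measured markers of each cell type on each array, with PBS arrays in blue, OVA 1 and OVA 3 in red and OVA 2 as an open grey point. Leukocyte markers are highest on the 2 OVA arrays in red (8.54 and 8.82) and lowest on OVA 2 (6.81).

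The rest of the pathway was read from 14 lists written by role, with 92 genes measured besides the members. None passed an FDR of 0.25. At an unadjusted p under 0.05, 4 were higher (4.35%, against 4.53% of all genes) and 7 lower (7.61%, against 4.78% of all genes). These counts moved with single arrays, and the higher genes numbered 8 without PBS 2 or PBS 3. The share of all genes was not counted in those fits. The median log2 fold change was -0.01 over these 92 genes, -0.16 over the 9 members and -0.02 over all genes. Over all 6 arrays 2 of the 92 were higher and 8 lower at an unadjusted p under 0.05, which 4.54% of all genes reached in either direction. The median was then -0.11, against 0.03 over all genes, with 62 of 92 below 0. With array weights 7 were higher, against 5.23% of all genes. The study names a PDGF pathway set among those up-regulated in OVA samples by the gene set method CAMERA. The lists here are not that set, and no set test was run.

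Among proteases, co-receptors and binding proteins of the ligands, Pcsk5, which encodes a proprotein convertase, measured 8.50, 8.64 and 8.66 on PBS 1 to 3. It was 9.01 on both OVA 1 and OVA 3 (log2 fold change 0.41, standard error 0.0892, adjusted p = 0.48 from limma), with OVA 2 also above the PBS arrays at 8.87. Plat, which encodes the tissue plasminogen activator that cleaves PDGF-C, had a log2 fold change of -0.27, and Lrp1, a co-receptor of PDGFRβ, -0.36, and neither reached an unadjusted p under 0.05. Of 5 ligands of the related VEGF branch, Pgf, which encodes placental growth factor, measured 9.13, 8.81 and 9.35 on PBS 1 to 3 and 9.77 on OVA 1 and 10.20 on OVA 3 (log2 fold change 0.89, standard error 0.194, adjusted p = 0.48 from limma). Its level on OVA 2 was 8.31, below every PBS array, as Pdgfc was, and over all 6 arrays its log2 fold change was 0.33. Vegfa had a log2 fold change of -0.32.

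Inhibitors of receptor signaling held 4 of the 7 lower genes. Of 10 measured, Spry1, Spry2, Socs3 and Dusp6 were lower at an unadjusted p under 0.05, as were 4.78% of all genes. None was higher, and the list median was -0.21. Spry1 and Spry2 encode Sprouty proteins that dampen the Ras pathway, Dusp6 a phosphatase of ERK and Socs3 an inhibitor of cytokine receptors, and all are themselves induced by the signals they limit. Spry1 measured 10.20, 10.23 and 10.15 on PBS 1 to 3 and 9.78, 9.62 and 9.68 on OVA 1 to 3 (log2 fold change without OVA 2 -0.47, standard error 0.0833, adjusted p = 0.426). The log2 fold changes of Spry2, Socs3 and Dusp6 were -0.42, -0.48 and -0.52. On OVA 2 each of the 4 also lay below every PBS array, as did 37.7% of all genes. Spry2 did not reach the cutoff without OVA 3. Of the transcription factors of the PDGF response, Myc was lower at an unadjusted p under 0.05 with a log2 fold change of -0.34, though not without PBS 1, PBS 3, OVA 1 or OVA 3, and Egr1 and Jun had values of -0.17 each. All 4 of these inhibitors, Pcsk5, Pgf, Src and Pdgfc are among the genes the study lists as changed on these arrays, and the lists here were written after that was read, so their direction is no independent evidence.

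Inside the cell, Pik3r2 and Pik3cb, a regulatory and a catalytic subunit of PI3-kinase, each had a log2 fold change of -0.31, and Jak2, a kinase of cytokine receptors, 0.34, all at an unadjusted p under 0.05 and an adjusted p of 0.48 to 0.512. Jak2 did not reach that cutoff over all 6 arrays (log2 fold change 0.22, with OVA 2 within the PBS range at 8.61) or without OVA 3. Pik3cb reached it over all 6 arrays (-0.42) but not without PBS 1, PBS 2, OVA 1 or OVA 3. None of 12 genes of receptor adaptors and Ras exchange and none of 7 of Ras and the MAP kinases reached that cutoff, and the lists' medians were 0.05 and 0.06. Of the 4 other Src family kinases measured, Fgr, a kinase of myeloid cells, measured 6.06, 6.18 and 6.38 on PBS 1 to 3, 6.57 on OVA 1, 6.91 on OVA 3 and 6.39 on OVA 2 (log2 fold change 0.54, standard error 0.144, adjusted p = 0.48). Without OVA 3 Fgr did not reach the cutoff (0.37). Blk, a kinase of B cells, had 0.39, while Fyn and Yes1, which like Src are expressed widely, had -0.28 and -0.11. Of the regulators and substrates of Src none reached an unadjusted p under 0.05, and Cttn, which encodes the actin binding substrate cortactin, had a log2 fold change of 0.21, and -0.04 over all 6 arrays. Csf1r, a class III receptor like the PDGF receptors and a marker of macrophages, had 0.54 without reaching that cutoff, 0.30 without PBS 1 and 0.14 over all 6 arrays, where OVA 2 (6.87) lay below every PBS array.

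**Figure D5:**
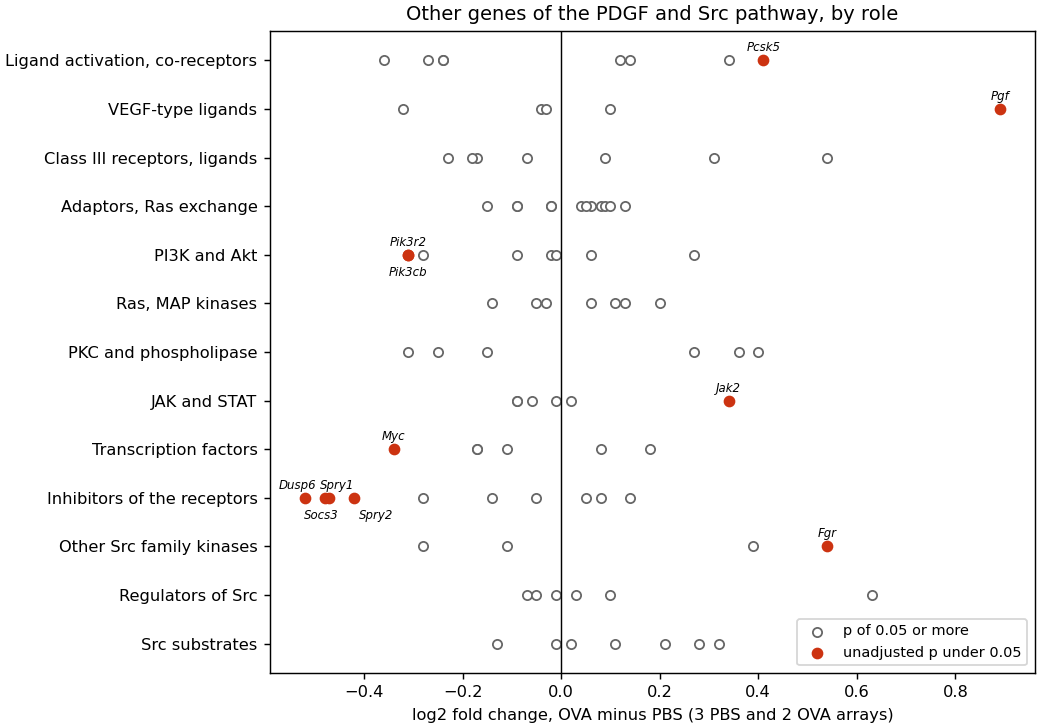
log2 fold change of OVA over PBS (horizontal axis, 3 PBS and 2 OVA arrays) of the other pathway genes, 1 row per role and 1 point per gene, with the list of a single gene not drawn. Red points have an unadjusted p under 0.05 and are named, and 4 of them are inhibitors of the receptors, between -0.52 and -0.42.

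As a description over the 6 arrays, which share OVA 2 as an extreme, Pdgfd and Pdgfrb had the most alike levels of the 36 pairs of members (Pearson r = 0.96, and 0.92 without OVA 2), and Pdgfa and Pdgfra the most opposite (r = -0.94, and -0.93 without OVA 2). Src and Pdgfc had an r of 0.56 with OVA 2 and 0.91 without it. The sign of r changed in 9 of the 36 pairs when OVA 2 was left out. Among all other genes, those most like Src were Hoxb8 (r = 0.993) and Gm5331 (r = 0.992). Those most like Pdgfc were H2-Ea (r = 0.995), in the MHC class II locus and listed by the study as H2-Ea-ps, and Ms4a4b (r = 0.994), a gene of T cells. Those most like Pdgfra were Mir687 (r = 0.991) and Gm6489 (r = 0.990), and those most like Pdgfrb were Slc24a3 (r = 0.996) and Cep170b (r = 0.993). Mir687, at 3.63 to 4.35, and Gm6489, at 2.28 to 2.96, lay below the lower quartile of each array (5.25 to 5.71). Of the 20239 genes tested, 139 had an r over 0.9 with Src on these 6 arrays and 463 with Pdgfc.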

How the data were processed

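Deposited values are log2 levels per probe set, 1 per Entrez gene, made by the authors with RMA from 6 arrays. The software is named as affy in the submitters' notes and as oligo in the Methods, with versions and genome build not given in the sources used here. They were used as deposited. Of 21225 probe sets, 20239 had 1 symbol and were tested, and the other 986 were not analysed here.

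Groups followed the sample titles. The OVA array with the lowest mean correlation with the others was left out first. OVA and PBS were compared by moderated statistics (lmFit, then eBayes) from limma 3.58.1, run under R 4.3.3 with statmod 1.5.0, two-sided, with Benjamini-Hochberg adjustment over all genes and the study's FDR of 0.25. Intervals cover 95%. The code was tested on simulated data. The Methods describe each sample as RNA pooled from several mice, so p-values measure the spread between these pools, and their number limits precision.

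Members and lists were chosen with earlier results of these data known. Besides the members, the genes named are up to 4 of each list with the smallest p, genes that define the sort or tissue, and the 2 genes most correlated with Src, Pdgfc, Pdgfra and Pdgfrb. Alternatives were other arrays, weights, blocks, filters, scalings and variance models.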

Additional observations from a re-analysis of the deposited data

Results flagged for a closer look

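OVA 2 was outside the first comparison, and 2 members lay above every PBS array on it. The level of Src was 8.62 there, against a highest PBS level of 8.42, the same side as on OVA 1 and OVA 3. The level of Pdgfra was 11.51, against a highest PBS level of 11.40, whereas OVA 3 lay below every PBS array. Of all genes 45.7% lay above every PBS array on OVA 2.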

How the results depend on the processing

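Src, Pdgfb, Pdgfc, Pdgfd, Pdgfrb and Plcg1 kept their direction under all 15 alternatives, though several of these could not change it. The ordinary t statistic, the other variance model and the filter on low levels leave a fold change as it is. The replicate block over 6 arrays gave the fold changes of the plain fit over 6, and the block over 5 those without PBS 2. Among fits with more than 1 OVA array, a member passed an FDR of 0.25 in only 1. Src passed with array weights over all 6 arrays (log2 fold change 0.37, adjusted p = 0.185), the 1 member to do so, a fit chosen after seeing the data because the default estimation of weights did not converge. In that fit 563 of all genes passed (2.78%), against 8 without OVA 2. It weighted OVA 2 at 0.0852 and the others at 1.05 to 3.30. In it 4 members had an unadjusted p under 0.05, as had 11.7% of all genes. Of the 92 other pathway genes 7 were higher at that cutoff, as were 5.23% of all genes, and 8 passed the FDR. The value of Pdgfa turned to -0.12 over all 6 arrays, with or without the replicate block, and to -0.02 with the replicate block over 5 arrays and with quantile normalization over 6, an alternative also added later. Leaving out each array gave -0.03 to 0.32 for Pdgfa, -0.45 to 0.00 for Pdgfra and -0.05 to 0.05 for Ptpn11. Cttn turned to -0.04 over all 6 arrays, with or without the block. Members at an unadjusted p under 0.01 numbered 0 over all 6 arrays with or without the block, 1 with the block over 5, an ordinary t statistic or quantile normalization over 6, and 0 to 1 without single arrays. With the block over 6 arrays 1 member had an unadjusted p under 0.05. Pathway genes higher at that cutoff numbered 2 over all 6 arrays, also after quantile normalization, 1 with the block there, 11 with it over 5 and 5 to 8 without single PBS arrays. Lower genes numbered 4 with the block over 6 and with an ordinary t statistic and 4 to 10 without single arrays. Deviations of same-numbered arrays from their group means had r of -0.11, -0.04 and 0.01. With 3 arrays per group, 1 of them OVA 2, this cannot show whether the numbers pair the samples. With 1 OVA array left, it is assumed to vary like the PBS arrays. The cause of these changes was not tested.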
